A study of Rattus norvegicus with 8 samples.

Results

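The mitochondrial ribosomal protein genes are the nuclear genes named Mrpl, for proteins of the large subunit of the mitochondrial ribosome, and Mrps, for proteins of the small subunit. They were chosen by name alone, as all probe sets whose only platform symbol begins with Mrpl or Mrps, and probe sets of 1 gene were averaged. This gave 75 of 29214 probe sets and 71 of the 14506 genes with a symbol of their own, 44 for the large and 27 for the small subunit. Of these genes, 67 had 1 probe set and 4 had 2 (Mrpl40, Mrpl41, Mrpl42 and Mrps11), and in each of the 4 both probe sets had the same sign of change. The rule took in no probe set for Mrpl20, Mrpl28, Mrpl33, Mrpl39, Mrpl58, Mrps6 or Mrps36.

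Mitochondrial ribosomes translate the few proteins still encoded in mitochondrial DNA, nearly all of them subunits of the respiratory chain and of ATP synthase. All of their proteins are made from nuclear genes in the cytosol and imported, so both genomes have to be expressed side by side. Some of the proteins have counterparts in bacterial ribosomes, and the others were added during the evolution of mitochondria. Neurons of the spinal cord depend on respiration for signalling, and inherited defects of several of these genes are known to affect muscle, heart and brain.

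The arrays measured RNA of the dorsal ipsilateral lumbar cord of adult male Wistar rats at day 14 after L5 spinal nerve transection. The HDACI group (4 arrays) received MS-275, which inhibits histone deacetylases of class I, at 30 nmol/day through an intrathecal catheter and osmotic pump, and the vehicle group (4 arrays) received the solvent, 30% dimethyl sulfoxide in saline. Animals of both groups were nerve-injured and carried pumps, so the comparison shows the compound in injured cord and says nothing of the injury itself, for which no uninjured cord was used here. By the methods, the arrays of a group are biological replicates. In the study's pretreatment experiments the pumps were placed days before the nerve injury. The array methods do not restate when delivery began.

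Values are log2 signals after RMA, a procedure that removes background, brings the arrays to a common distribution and combines the probes of each probe set. A log2 fold change is the HDACI mean minus the vehicle mean, and RMA makes it relative to the rest of the array. Median log2 signals over genes ran from 8.56 in vehicle replicate 4 to 8.65 in vehicle replicate 2. Neuron, astrocyte and oligodendrocyte markers gave mean signals of at least 11.4 on each of the 8 arrays, and 1102 olfactory receptor genes, which the cord is not known to use, had a 95th percentile of 6.94. The lowest mean of any mitochondrial ribosomal protein gene was 7.70. In whole tissue, fewer cells of a type and less RNA per cell cannot be told apart. Of 12 neuron markers, 11 were below 0 in the comparison of HDACI with vehicle (median -0.07), where 57.9% of all genes were below 0. Above 0 were 7 of 7 markers of infiltrating macrophages (median 0.14), 6 of 6 of mural cells (0.10), 6 of 7 of microglia (0.07), 7 of 8 of astrocytes (0.05), 5 of 7 of endothelium (0.05), 4 of 7 of oligodendrocytes (0.02) and 4 of 7 of leptomeningeal fibroblasts (0.21). The neuron markers ran from -0.26 for Tubb3 to 0.01 for Slc32a1, with Syt1 at -0.002. Whether these marker values reflect cell content, and whether cell content enters the values below, was not tested.

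No mitochondrial ribosomal protein gene passed adjustment for multiple testing, and the genes of this family differed little between the groups. Across the 71 genes the median log2 fold change was -0.025, against -0.014 over all genes, and the values ran from -0.15 for Mrps30 to 0.18 for Mrpl18. In 34 of the 71 genes the change lay within 0.05 of 0. There were 44 genes below 0 (62.0%, against 57.9% of all genes) and 27 above. At an adjusted p under 0.05 (limma, Benjamini-Hochberg over 14506 genes) the count was 0 of 71, and 0 of 14506 over all genes. At an unadjusted p under 0.01, the threshold used by the study, 1 gene was lower with HDACI (0.855% of all genes) and 0 were higher (0.607% of all genes), so that 1 of 71 was called in either direction (1.46% of all genes). Of the 75 probe sets taken singly, 1 had an unadjusted p under 0.01 (1.3% of all probe sets) and 0 an adjusted p under 0.05 (0.00342% of all probe sets). At an unadjusted p under 0.05, 6 of 71 were called (7.75% of all genes), 4 of them lower (4.96% of all genes) and 2 higher (2.79% of all genes). The arrays of the groups did not overlap in 3 genes that were lower (3.6% of all genes) and 1 that was higher (1.42% of all genes), 4 in all (5.02% of all genes). These counts are near those of all genes, and so are no result about the family.

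**Figure D1:**
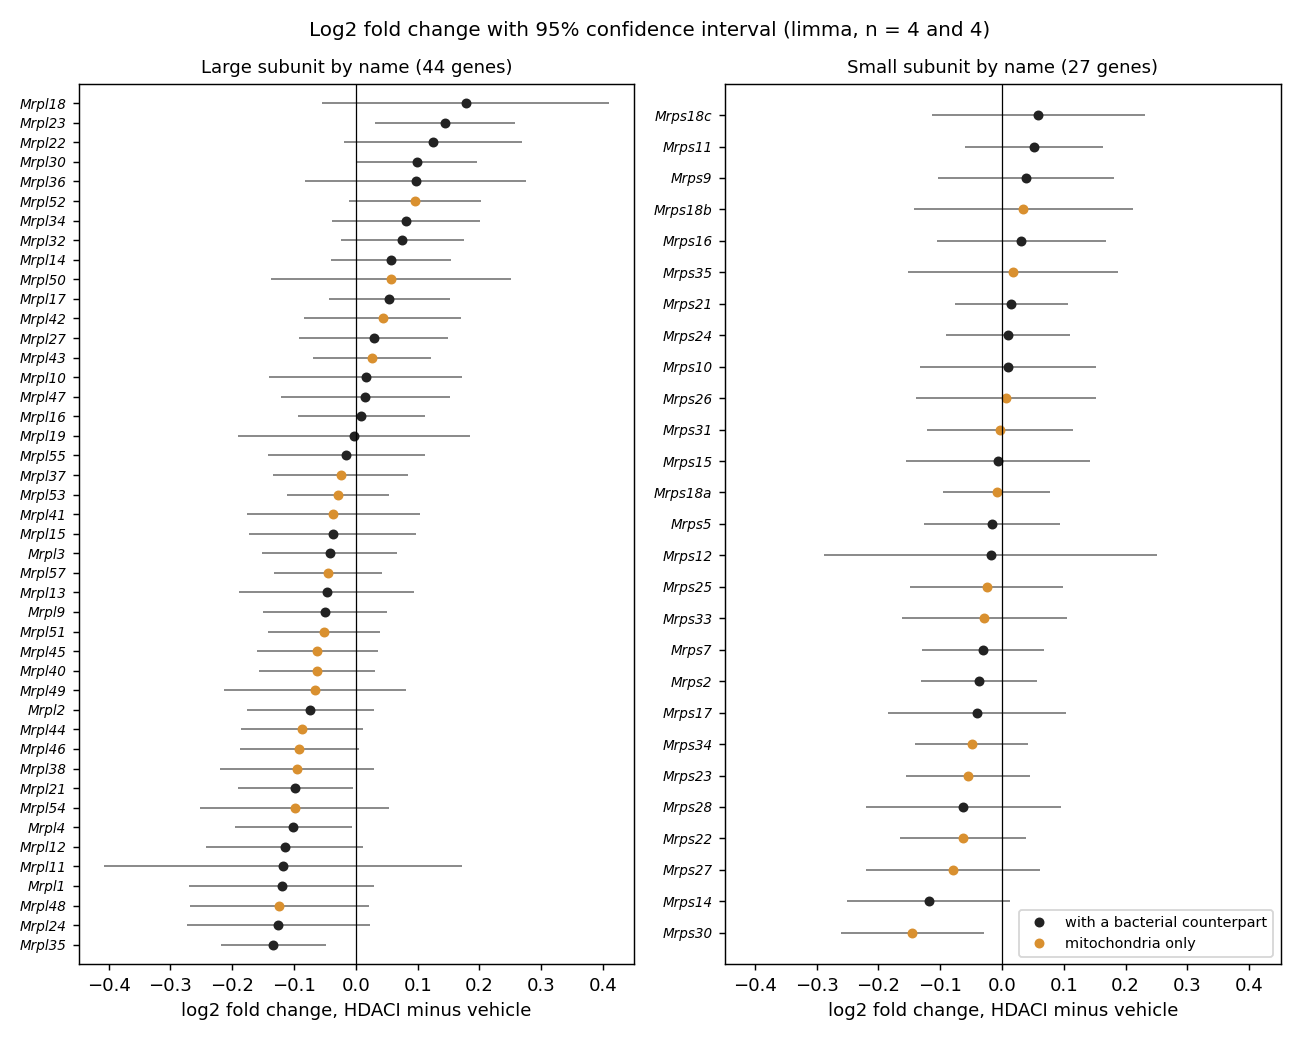
Log2 fold change (HDACI minus vehicle, horizontal axis) of each of the 71 genes with its 95% confidence interval from limma. Large-subunit genes are on the left and small-subunit genes on the right. Black points mark genes with a bacterial counterpart and orange points those classed as mitochondria-only. The points lie between -0.15 and 0.18.

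The intervals say how large a change the 8 arrays leave possible. In 69 of 71 genes the whole 95% confidence interval lay within 0.3 of 0 on the log2 scale, and the widest bound was 0.41 for Mrpl18, a 1.33-fold difference. The other gene outside was Mrpl11, with an interval of -0.41 to 0.17. The median SD within groups was 0.073 for the members, against 0.0866 over all genes. A p that misses the threshold therefore leaves small changes possible in most genes and does not show that levels were equal.

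The large and the small subunit differed little in their change. Large-subunit genes had a median log2 fold change of -0.037 and small-subunit genes -0.016, and 27 of 44 and 17 of 27 were below 0. The mean over large-subunit genes was 9.476, 9.452, 9.477 and 9.475 on the HDACI arrays, against 9.502, 9.523, 9.481 and 9.442 on the vehicle arrays. For small-subunit genes it was 9.485, 9.445, 9.441 and 9.479 with HDACI, against 9.500, 9.540, 9.471 and 9.415 with vehicle. The HDACI arrays lay inside the range of the vehicle arrays in both subunits. The large mean minus the small mean was -0.008, 0.007, 0.036 and -0.005 on the HDACI arrays, against 0.002, -0.016, 0.010 and 0.027 on the vehicle arrays. Its group means differed by 0.002, with an SD of 0.020 among HDACI and 0.018 among vehicle arrays. Its own level has no meaning between sets of probes, and only its change between arrays was compared. In structures of the mammalian ribosome Mrps30 and Mrps18a sit in the large subunit despite their names, and with both moved the difference was -0.005.

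**Figure D2:**
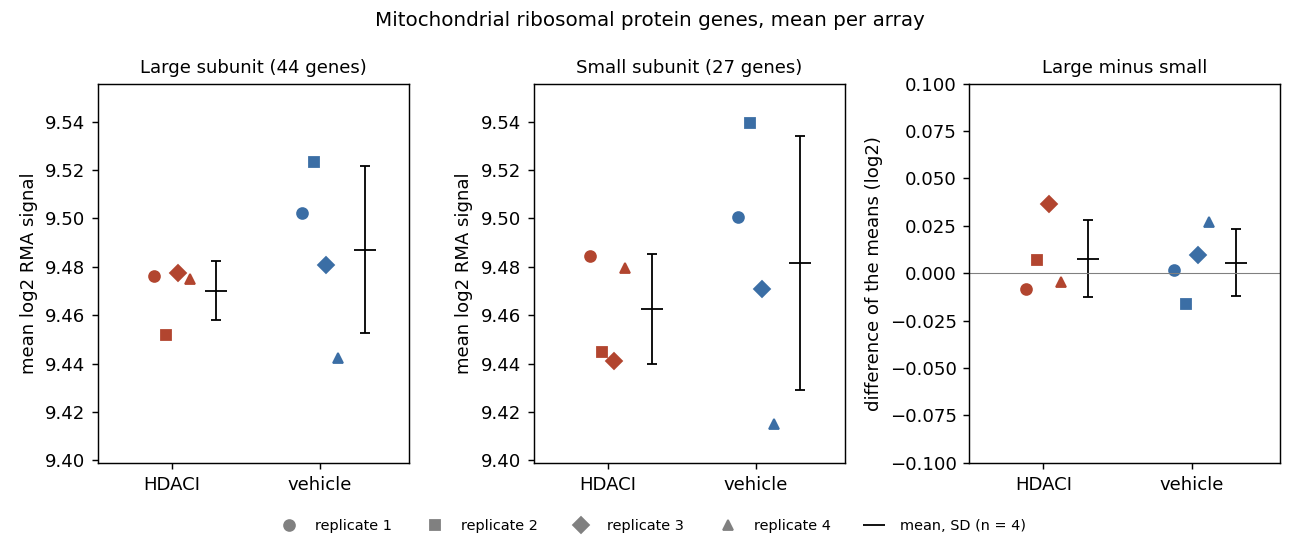
Mean log2 signal of the 44 large-subunit genes (left), of the 27 small-subunit genes (centre) and their difference (right) on each array, HDACI in red and vehicle in blue, with marker shapes for replicate numbers and bars for the group mean and SD (n = 4). Vehicle replicate 2 is the highest and vehicle replicate 4 the lowest array in both subunits, with the HDACI arrays between them.

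The mean over all 71 genes had an SD of 0.014 among HDACI arrays and 0.041 among vehicle arrays (n = 4 each). Vehicle replicate 2 was the highest of the 8 arrays in 21 of the 71 genes (29.6%, against 17.9% of all genes) and the lowest in 0 of them (15.4% of all genes). Vehicle replicate 4 was the lowest in 22 (31.0%, against 17.9% of all genes). These are also the arrays with the highest and lowest median over the genes with a symbol of their own. Over all probe sets the median was 7.952 in vehicle replicate 2 and 7.960 in vehicle replicate 4. What sets these arrays apart was not tested. Without vehicle replicate 2 the median of the family was -0.005, and without vehicle replicate 4 it was -0.040, against -0.016 and -0.014 over all genes in the same fits. Without vehicle replicate 2, 38 of the 71 genes were below 0 (57.9% of all genes), so the median of the family then lay above that of all genes. In the small subunit the median turned to 0.006 without vehicle replicate 2.

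Of the 6 genes with an unadjusted p under 0.05, all but Mrps30 have large-subunit names, as do 44 of the 71 genes of the family. Whether the subunits differ in this share was not tested. Mrpl35, a large-subunit protein with a bacterial counterpart, was the 1 gene that fell at an unadjusted p under 0.01. Its log2 signal was 10.57, 10.51, 10.51 and 10.55 with HDACI, against 10.65, 10.67, 10.71 and 10.64 with vehicle. Every HDACI array lay below every vehicle array. HDACI minus vehicle was -0.13, with a 95% confidence interval of -0.22 to -0.05 and a standard error of 0.038. The limma p was 0.0061, with an adjusted p of 0.61, and the exact two-sided permutation p was 0.0286, the smallest that 4 against 4 arrays allow. With each array left out in turn, Mrpl35 passed an unadjusted p under 0.01 in 2 of 8 fits, those without HDACI replicate 1 or without vehicle replicate 4, and missed it in the others, with no change of sign. It also missed it after centring each array on the median over genes, a setting chosen after seeing the data.

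Among the genes that did not reach that threshold, Mrps30, which sits in the large subunit, had the lowest fold change. Its log2 signal was 10.30, 10.23, 10.24 and 10.26 with HDACI, against 10.29, 10.47, 10.36 and 10.48 with vehicle. The difference was -0.15 (limma p = 0.019, adjusted p = 0.61, exact permutation p = 0.0571). The groups overlapped only through vehicle replicate 1. With each array left out in turn, Mrps30 passed an unadjusted p under 0.01 in 1 of 8 fits, that without vehicle replicate 1. Its limma p in these fits ran up to 0.051. Mrpl4, whose bacterial counterpart lines the tunnel through which the new protein leaves, gave 10.55, 10.45, 10.54 and 10.56 with HDACI, against 10.62, 10.66, 10.65 and 10.58 with vehicle. The HDACI arrays were all lower, at -0.10 (limma p = 0.039, adjusted p = 0.635, exact permutation p = 0.0286). Mrpl21, another protein shared with bacteria, gave 10.13, 10.03, 10.04 and 10.12 with HDACI, against 10.19, 10.19, 10.15 and 10.19 with vehicle, again without overlap (-0.10, limma p = 0.0417, exact permutation p = 0.0286). With each array left out in turn, Mrpl4 and Mrpl21 each kept an unadjusted p under 0.05 in 2 of 8 fits. Their limma p in these fits ran up to 0.0996 and 0.108.

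In the other direction, Mrpl23, at the exit of that tunnel, gave 10.38, 10.40, 10.41 and 10.51 with HDACI, against 10.38, 10.25, 10.25 and 10.23 with vehicle. The difference was 0.14 (limma p = 0.0175, adjusted p = 0.61, exact permutation p = 0.0571), and vehicle replicate 1 lay inside the HDACI range. Without that array Mrpl23 passed an unadjusted p under 0.01, the 1 gene to be called higher in a fit that left out an array. It missed that threshold in the other fits of this kind, with a limma p of up to 0.055. Mrpl30, a large-subunit protein for which RefSeq also lists 9 pseudogene copies, gave 8.93, 8.95, 8.93 and 9.0 with HDACI, against 8.86, 8.91, 8.88 and 8.77 with vehicle. All HDACI arrays were higher, by 0.10 (limma p = 0.0481, exact permutation p = 0.0286). With each array left out in turn, Mrpl30 kept an unadjusted p under 0.05 in 1 of 8 fits, and its limma p ran up to 0.123. Pseudogene copies, which RefSeq lists for 22 of the 71 genes, can share sequence with probes, and this was not separated here.

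**Figure D3:**
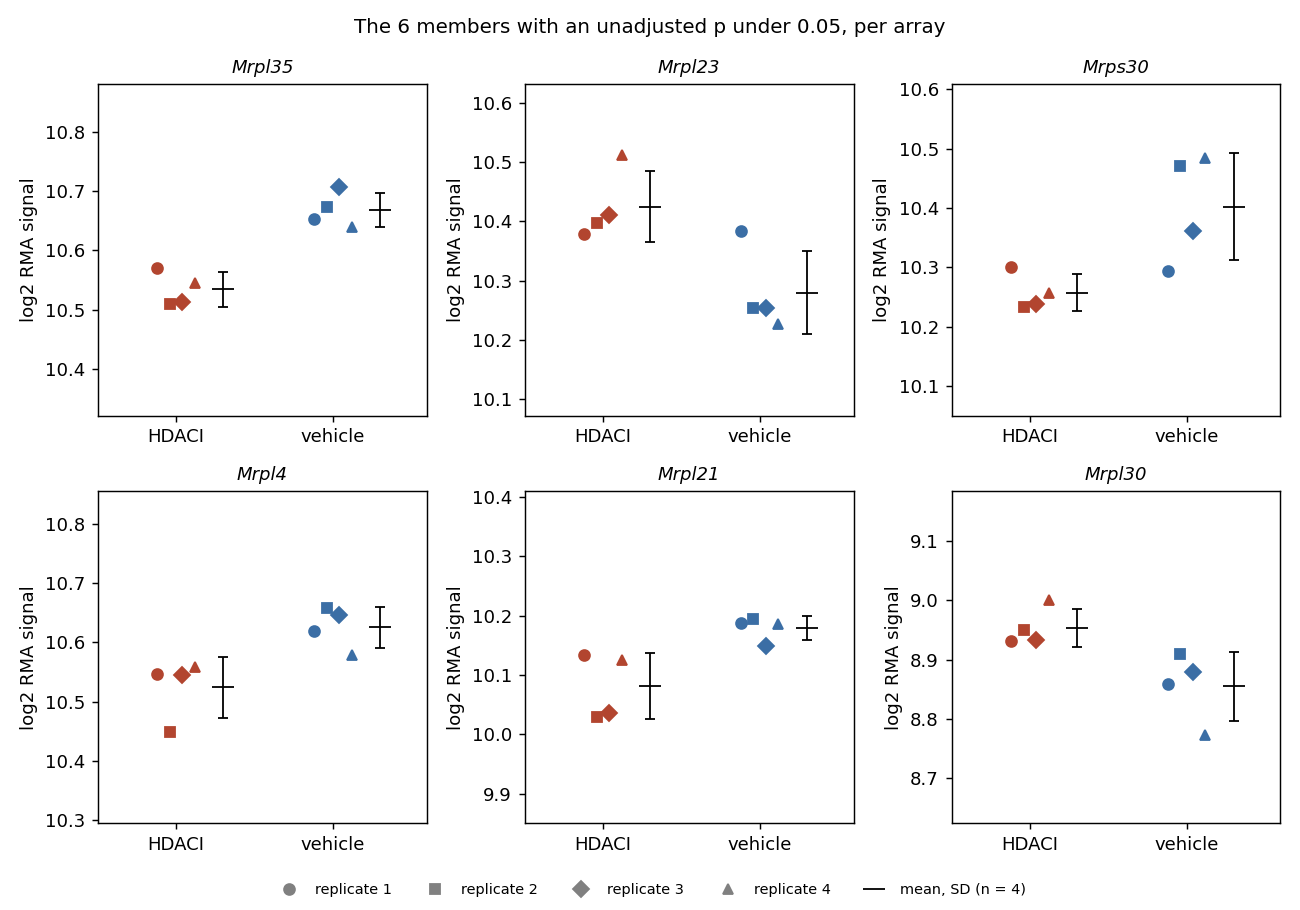
Log2 signal per array (vertical axis) of the 6 genes with an unadjusted p under 0.05, HDACI in red and vehicle in blue, with marker shapes for replicate numbers and bars for the mean and SD (n = 4). HDACI arrays lie below all vehicle arrays for Mrpl35, Mrpl4 and Mrpl21 and above them for Mrpl30, and the groups overlap for Mrpl23 and Mrps30.

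The largest value of the family, 0.18 for Mrpl18, came with a wide spread in both groups. This protein of the central protuberance is named here because of its values. It gave 8.56, 8.60, 8.43 and 8.20 with HDACI, against 8.49, 8.24, 8.26 and 8.09 with vehicle (limma p = 0.118, exact permutation p = 0.2). HDACI replicate 4 lay below 3 of the 4 vehicle arrays. In the small subunit no gene had p under 0.05 other than Mrps30. The next was Mrps14, a protein of the head of that subunit, at 8.95, 8.97, 8.93 and 8.80 with HDACI, against 8.97, 9.14, 9.07 and 8.95 with vehicle (-0.12, exact permutation p = 0.143).

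The 42 genes with a bacterial counterpart had a median of -0.004 with 20 above 0 and 22 below. The 29 genes classed as mitochondria-only had a median of -0.045, with 22 below 0, against -0.014 and 57.9% below 0 over all genes. Both are descriptions, and the difference between these classes was not tested. The mitochondria-only class holds Mrps18a and Mrps18b, paralogs of Mrps18c, which is in the class with a bacterial counterpart. The mean over the mitochondria-only genes was 9.60, 9.58, 9.60 and 9.62 on HDACI arrays, against 9.63, 9.68, 9.62 and 9.61 on vehicle arrays. HDACI replicate 4 lay level with vehicle replicate 3 and above vehicle replicate 4. Examples below 0 were Mrpl46 of the central protuberance (-0.09) and Mrpl44, which has the fold of an RNase III (-0.09), each with an exact permutation p of 0.0571. Mrpl52 was above 0 (0.10, exact permutation p = 0.0571).

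By place in the ribosome, 4 regions were looked at. Mrpl35, Mrps30, Mrpl4, Mrpl21 and Mrpl30 were assigned to none of them, so Mrpl4 is not in the count for the tunnel exit. In these regions 0 genes had an unadjusted p under 0.01 and 1, Mrpl23, had one under 0.05. The 3 proteins of the stalk, which recruits translation factors, were Mrpl12 at -0.12 (exact permutation p = 0.143), Mrpl11 at -0.12 and Mrpl10 at 0.02. Mrpl12, also known to bind the mitochondrial RNA polymerase, gave 8.71, 8.53, 8.75 and 8.61 with HDACI, against 8.70, 8.80, 8.74 and 8.81 with vehicle, and the groups overlapped. Around the exit of the peptide tunnel 4 of 6 genes were above 0, with Mrpl23 at 0.14 and Mrpl45, which anchors the ribosome to the inner membrane, at -0.06. In the central protuberance 5 of 7 were below 0, and in the head of the small subunit 4 of 8. The paralogs Mrps18a, Mrps18b and Mrps18c were at -0.01, 0.03 and 0.06, each overlapping between the groups.

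Promoters were read to see what sequence the genes share. RefSeq (assembly GRCr8) gave 300 bases, 250 before and 50 after the start, for 57 of the 71 genes. Motifs were searched on both strands: GCGCA and GCGC with any 1 base between them for NRF1, CCGGAAG for ETS factors such as GABP, AANATGGCG for YY1, GGGCGG for SP1 and TGACGTCA for CREB. The first 3 are known regulators of nuclear genes for mitochondrial proteins. The NRF1 motif stood in 10 of 57 promoters (17.5%, against 4.71% of 27457 promoters), the ETS motif in 18 (31.6% against 9.22%) and the YY1 motif in 12 (21.1% against 3.33%). At least 1 of these 3 was in 31 promoters (54.4% against 15.3%). SP1 was in 29 (50.9% against 34.9%) and the CREB motif in 1 (1.75% against 1.91%). Matches of different motifs overlapped in 1 promoter. The median GC content was 56.0%, against 52.3% over all promoters. A match is a description of the letters and not a bound site.
The promoters of the genes with an unadjusted p under 0.05 that had an entry, and that of Mrpl18, are given 5′ to 3′ on the strand of the gene, with NRF1, ETS and YY1 matches in capitals. They lie at chr1:207116680-207116979 (plus strand) for Mrpl23, chr2:52195855-52196154 (minus strand) for Mrps30, chr8:27815521-27815820 (plus strand) for Mrpl4, chr9:47620977-47621276 (plus strand) for Mrpl30 and chr1:50384702-50385001 (plus strand) for Mrpl18.
Mrpl23: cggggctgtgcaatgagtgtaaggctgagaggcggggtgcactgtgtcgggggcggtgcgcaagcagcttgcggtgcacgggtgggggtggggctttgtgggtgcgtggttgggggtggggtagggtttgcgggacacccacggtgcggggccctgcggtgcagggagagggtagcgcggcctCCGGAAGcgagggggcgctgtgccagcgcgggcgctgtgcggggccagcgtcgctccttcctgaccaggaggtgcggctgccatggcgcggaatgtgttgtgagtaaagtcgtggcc
Mrps30: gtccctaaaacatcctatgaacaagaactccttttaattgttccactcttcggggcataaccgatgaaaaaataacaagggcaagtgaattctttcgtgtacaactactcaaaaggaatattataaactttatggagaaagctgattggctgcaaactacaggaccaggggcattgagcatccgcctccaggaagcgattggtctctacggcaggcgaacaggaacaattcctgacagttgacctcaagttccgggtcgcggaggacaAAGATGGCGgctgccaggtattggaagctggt
Mrpl4: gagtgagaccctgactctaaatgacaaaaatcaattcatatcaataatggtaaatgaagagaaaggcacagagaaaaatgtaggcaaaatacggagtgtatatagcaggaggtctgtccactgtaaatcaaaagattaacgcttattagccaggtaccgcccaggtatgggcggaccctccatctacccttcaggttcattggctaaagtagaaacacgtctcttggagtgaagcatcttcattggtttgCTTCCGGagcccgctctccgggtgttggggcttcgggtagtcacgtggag
Mrpl30: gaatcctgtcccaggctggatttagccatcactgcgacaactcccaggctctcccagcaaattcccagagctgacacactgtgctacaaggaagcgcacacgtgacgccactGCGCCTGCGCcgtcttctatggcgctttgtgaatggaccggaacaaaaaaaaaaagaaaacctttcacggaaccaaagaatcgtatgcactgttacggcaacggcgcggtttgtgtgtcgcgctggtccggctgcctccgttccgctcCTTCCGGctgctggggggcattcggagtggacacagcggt
Mrpl18: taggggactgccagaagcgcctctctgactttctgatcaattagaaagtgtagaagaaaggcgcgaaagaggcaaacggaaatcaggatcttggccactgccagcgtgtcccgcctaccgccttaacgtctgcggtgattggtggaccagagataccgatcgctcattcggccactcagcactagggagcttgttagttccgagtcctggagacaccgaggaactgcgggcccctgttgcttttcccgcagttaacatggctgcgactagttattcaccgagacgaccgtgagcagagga
With the first base of the transcript as 1, the ETS match of Mrpl23 began at -67 and that of Mrpl4 at 1, the YY1 match of Mrps30 at 19, and the NRF1 and ETS matches of Mrpl30 at -138 and 11. None of these 3 motifs was in the window of Mrpl18. Mrpl23 and Mrpl30, which were higher, and Mrpl4, which was lower, all held the ETS motif. Whether any motif goes with the direction of change was not tested. The median log2 fold change was 0.008 in genes with the ETS motif and -0.031 in those without, 0.020 and -0.025 for NRF1, and -0.017 and -0.025 for YY1.

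Many of these genes start back to back with another gene. Of the 57, 18 (31.6%, against 10.3% of all genes) had a neighbour on the other strand whose start lay within 1000 bases upstream. Both genes were measured in 13 pairs, and in 10 of them (76.9%) the signs of the log2 fold changes were opposite. Over all genes this held for 41.2% of the 374 measured pairs, and for 39.9% of the 361 pairs without a member of the family. The count of 10 was looked at after the values were seen and was not tested. Most of the changes in these pairs were small, such as 0.004 for Ptcd2 and 0.016 for Mrpl47. Mrps18b and Mrps18c each changed sign in 1 fit that left out an array. In 3 pairs the signs were the same (Mrpl40 with Hira, Mrps7 with Gga3 and Mrpl27 with Eme1).

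**Figure D4:**
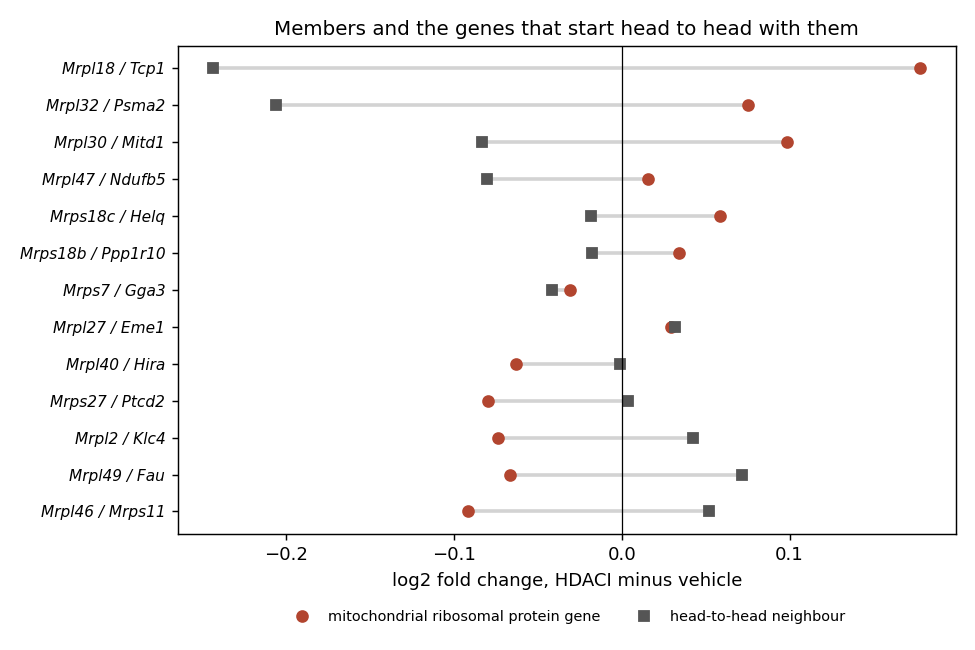
Log2 fold change (HDACI minus vehicle, horizontal axis) of each mitochondrial ribosomal protein gene (red circles) and of the gene that starts head to head with it (grey squares), 1 pair per line. In 10 of 13 pairs the symbols stand on opposite sides of 0, with the widest gap for Mrpl18 and Tcp1.

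The widest gap was between Mrpl18 at 0.18 and Tcp1 at -0.24, which encodes a subunit of the cytosolic chaperonin. Tcp1 gave 10.70, 10.52, 10.73 and 10.78 with HDACI, against 10.83, 10.94, 10.97 and 10.97 with vehicle. It had an unadjusted p under 0.01, without overlap between the groups (limma p = 0.0037, adjusted p = 0.61, exact permutation p = 0.0286). Mrpl32 was at 0.08 (exact permutation p = 0.114) beside Psma2, a proteasome subunit, at -0.21 (exact permutation p = 0.0571). Mrpl30 was at 0.10 beside Mitd1 at -0.08, and in both of these genes the groups did not overlap (exact permutation p = 0.0286 each). Mrpl46 and Mrps11, both members of the family, share a start region and were at -0.09 and 0.05.

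In 4 lists of other mitochondrial translation genes, 0 genes passed an unadjusted p under 0.01 (1.46% of all genes), and 2 assembly factors had one under 0.05 (7.75% of all genes). The 5 ribosome proteins with other names had a median of -0.001. Among them Dap3 was at -0.05 and Ptcd3 at -0.02, while Chchd1 was at 0.21 (exact permutation p = 0.543), and HDACI replicate 1 (9.47) and vehicle replicate 2 (9.47) lay far below the other arrays. Of 23 assembly factors, 16 were below 0 (69.6%, against 57.9% of all genes). Malsu1, which acts in assembly of the large subunit, was at -0.13 (exact permutation p = 0.0571), and Eral1, a chaperone of the small-subunit RNA, at -0.11 (exact permutation p = 0.0286), the 1 assembly factor whose groups did not overlap (lower in 3.6% of all genes). The list of 13 translation factors also holds enzymes that act on tRNAs (Lars2, Mto1, Gtpbp3, Trmu and Mtfmt). It had a median of -0.006, against -0.014 over all genes, with 9 below 0 (69.2%) and 4 above. The smallest p were those of the initiation factor Mtif2 at -0.11 (exact permutation p = 0.0857) and the release factor Mtrf1l at -0.11. The highest value was 0.06 for Lars2. The 11 aminoacyl-tRNA synthetases had a median of -0.035, with 7 below 0 (63.6%, against 57.9% of all genes) and 4 above. Vars2 at -0.12 and Hars2 at -0.07 had the smallest p, and Lars2, also in this list, was the highest.

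Of 17 genes of mitochondrial transcription and RNA handling, 15 were below 0 (57.9% of all genes), with a median of -0.053 against -0.014 over all genes. In this list 1 gene fell at an unadjusted p under 0.01 (0.855% of all genes). This was Trmt10c, a subunit of mitochondrial RNase P that is needed to cut tRNAs from the primary transcript. It gave 8.60, 8.33, 8.43 and 8.59 with HDACI, against 8.72, 8.79, 8.71 and 8.66 with vehicle. HDACI minus vehicle was -0.23 (limma p = 0.00633, adjusted p = 0.61, exact permutation p = 0.0286), and the groups did not overlap. It was lost from the calls in 3 of the fits that left out an array, those without HDACI replicate 2, HDACI replicate 3 or vehicle replicate 2, and without moderation of the variances. Next came Supv3l1, a helicase of mitochondrial RNA decay, at -0.09 (exact permutation p = 0.0571). Without overlap between the groups, 2 genes of the list were lower (3.6% of all genes), Trmt10c and Elac2 (-0.075, exact permutation p = 0.0286). Hsd17b10, another subunit of mitochondrial RNase P, was at 0.003 (exact permutation p = 0.971).

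The other large gene families of ribosomes and respiration gave a scale for these values. The 68 cytosolic ribosomal protein genes had a median of 0.072, against -0.014 over all genes, and 4 were below 0 (5.88%, against 57.9%). Of these genes 6 were higher at an unadjusted p under 0.01 (0.607% of all genes) and 0 lower, and 14 were higher without overlap between the groups (1.42% of all genes). Their mean was 10.99, 11.04, 10.97 and 11.01 on HDACI arrays, against 10.98, 10.95, 10.94 and 10.87 on vehicle arrays. The median of the mitochondrial ribosomal protein genes was -0.025, and the difference between the families was not tested. The 74 nuclear genes of the respiratory chain, ATP synthase included, had a median of -0.018, with 42 below 0 (56.8%, against 57.9% of all genes). At an unadjusted p under 0.01, 2 were higher (0.607% of all genes), Cox6a2 (0.18) and Cox4i2 (0.21). At the same threshold 1 was lower (0.855% of all genes), Cox5a (-0.17). Without overlap between the groups, 5 were lower (3.6% of all genes).

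**Figure D5:**
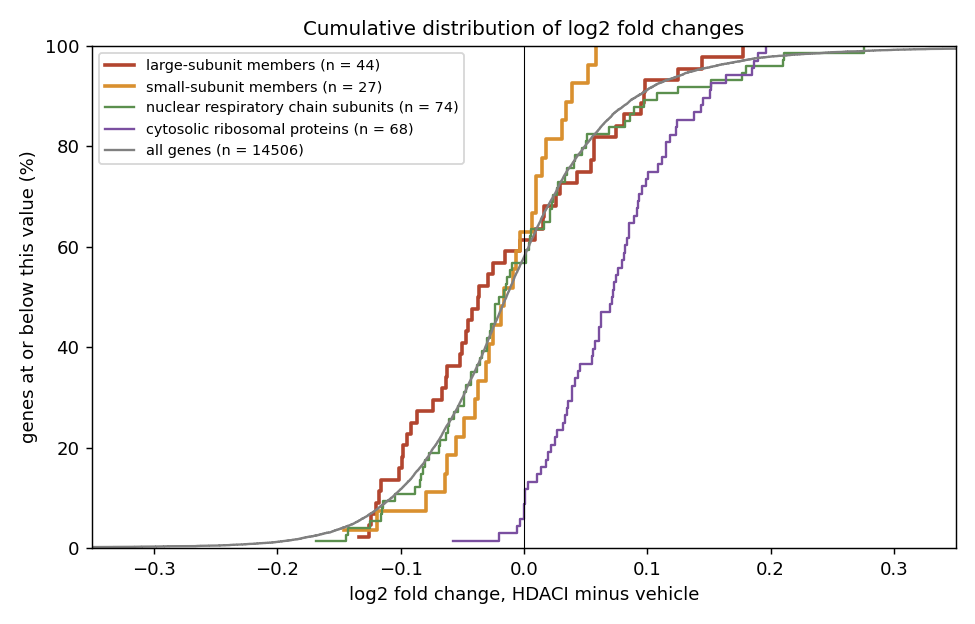
Cumulative share of genes (vertical axis, %) at or below a log2 fold change (HDACI minus vehicle, horizontal axis, cut at -0.35 and 0.35). Curves are given for large-subunit and small-subunit genes, nuclear respiratory chain genes (ATP synthase included), cytosolic ribosomal protein genes and all genes. The curves of the mitochondrial ribosomal protein genes run close to that of all genes, and the curve of the 68 cytosolic ribosomal protein genes lies to the right, with a median of 0.072.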

How the data were processed

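The values used are log2 signals as deposited. The authors hybridised RNA to Affymetrix Rat Gene 1.0 ST arrays and normalized the signals by RMA with oligo, whose version is not given in the sources used here. Of 29214 probe sets, 15310 had 1 platform symbol, 323 had several and 13581 were not listed. A probe set that lists Mrpl20 with a second gene was left out. Symbols were matched to RefSeq (GRCr8) for all 71 genes.

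HDACI and vehicle were compared on gene means by limma 3.58.1 (lmFit, then eBayes; R 4.3.3; two-sided, Benjamini-Hochberg over 14506 genes, no filter, equal weights, residual df 6, prior df 3.36). Exact permutation tests used all 70 assignments of 4 and 4 arrays. The number of arrays limits the precision. Scripts were tested on simulated data.

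Members and lists were chosen with earlier results of these data known. Genes named are those with an unadjusted p under 0.05, the 8 smallest p of each subunit, the 3 highest and 3 lowest mean signals of each subunit (used to pick names only), Mrps30, the Mrps18 paralogs, Mrpl12, subunits with other names, and the 2 smallest p of each pathway list. Others were named after their values were seen or as members of a region or a head-to-head pair. Promoters to print were settled after their matches were known. Alternatives were trend and robust settings, no moderation, filters on signal, a further quantile normalization, centring on array medians, the brightest probe set, identical probe sets counted once, array weights, a replicate block and each array left out.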

Additional observations from a re-analysis of the deposited data

Results flagged for a closer look

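In 9 of 62 groups of 4 arrays tested, 1 array stood far from the other 3, where chance gives about 1 in 20 groups. Among HDACI arrays these were Mrpl4 on replicate 2 (10.45, the others 10.54 to 10.56), Mrpl46 on replicate 4 (9.90, the others 9.80 to 9.81), Mrpl57 on replicate 4 (10.65, the others 10.56 to 10.57) and Mrps28 on replicate 2 (8.67, the others 8.59 to 8.60). Mrps21 stood out on HDACI replicate 1 (11.48, the others 11.37 to 11.39) and Mrps35 on HDACI replicate 4 (8.86, the others 8.53 to 8.55). The mean of the large-subunit genes stood out on HDACI replicate 2 (9.45, the others 9.47 to 9.48). Among vehicle arrays they were Mrps34 on replicate 2 (7.97, the others 8.06 to 8.07) and Mrps18a on replicate 4 (10.59, the others 10.62 to 10.63). All values are log2 signals.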

How the results depend on the processing

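Of 28 named genes of the family, 21 kept their sign in every alternative that gave them a value, 19 for most and 18 for Mrpl44, Mrpl2, Mrps34 and Mrpl50, which the filter at the median signal removed. Genes named for other reasons, such as Mrpl18 and Mrpl32, were not among the 28. No gene of the family passed adjustment in any alternative. The adjusted p of Mrpl35 ran from 0.354 to 0.901, and its unadjusted p from 6.68e-04 to 0.0301. Mrps18a turned to 0.0033 after a further quantile normalization. With arrays left out in turn, Mrps18c ran from -0.012 to 0.091, Mrps9 from -0.013 to 0.074, Mrps18b from -0.020 to 0.096, Mrps21 from -0.0096 to 0.025, Mrps35 from -0.063 to 0.048, Mrps18a from -0.020 to 0.010 and Mrps26 from -0.053 to 0.039. In the same fits the count of genes lower at an unadjusted p under 0.01 ran from 0 to 1, that of genes higher from 0 to 1, that at p under 0.05 from 3 to 6, that of probe sets at p under 0.01 from 0 to 2 and that of pathway genes from 0 to 1. The medians ran from -0.040 to -0.005 for both subunits, from -0.048 to -0.018 for the large and from -0.036 to 0.006 for the small subunit, and the large minus small difference from -0.008 to 0.009. With genes above the median signal that difference was -0.011, against 0.002 with all genes. Centring each array on the median of all probe sets gave 3 genes at p under 0.05 in place of 6, where the other settings with all arrays gave 4 to 8, and 0 probe sets at p under 0.01 in place of 1. Centring on the median over genes, an alternative chosen after seeing the data, left 0 genes lower at p under 0.01. Without moderation of the variances 0 pathway genes passed in place of 1. The causes were not tested.

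Deviations of same-numbered arrays correlated at -0.27, 0.36, 0.04 and 0.06, and those of arrays with different numbers at -0.44 to 0.34. The ranges overlap, so these values cannot decide whether the replicate numbers pair the arrays. With the replicate number as a block, 0 genes of the family were lower at p under 0.01, 0 probe sets passed, and 0 pathway genes passed.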
